A study of Mus musculus with 12 samples.

Results

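Tumor cells carry surface and secreted molecules that hold back T cells, natural killer (NK) cells and macrophages, and the genes of 8 of them were followed here in B16F10 cells, a mouse melanoma line: Cd274 (PD-L1), Pdcd1lg2 (PD-L2), Cd276 (B7-H3), Vsir (VISTA), Pvr (CD155), Lgals9 (galectin 9), Cd47 and Nt5e (CD73). They form a list of names, and no measured value enters the rule. Earlier results of these data were known when the genes were chosen, so the choice was not blind to them. Of the 24421 gene rows in the count files, 7 of the 8 genes were found by their current symbol and Vsir was found under an older symbol, 4632428N05Rik. The row named Pvr carries the Entrez number of Nectin2, and the row of Nectin2 (older symbol Pvrl2) carries the same number with other counts, so both were followed by symbol and their separation rests on the symbols alone.

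The samples were cultures of this 1 line, with no host immune cells, in 4 groups of 3 replicates. Control cells received the vehicle DMSO. The DAC group received 25 nM 5-aza-2'-deoxycytidine, a DNA methyltransferase inhibitor, for 72 h. The SFN group received sulforaphane, an isothiocyanate of cruciferous vegetables, for the last 48 h. The DAC+SFN group received 25 nM DAC for 72 h with 5 µM SFN in the last 48 h. For SFN alone the labels give 5 nM and the study's methods 5 µM, and the SFN and DAC+SFN groups therefore differ in SFN dose if the labels hold.

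PD-L1 and PD-L2 bind PD-1 on T cells and restrain them. VISTA and B7-H3 are relatives of the B7 family with inhibitory roles toward T cells. CD155 binds the inhibitory receptors TIGIT and CD96 and the activating receptor CD226 on T and NK cells. Galectin 9 is a sugar-binding lectin that binds TIM-3 among other partners. CD47 binds SIRPα on macrophages and serves as a signal against phagocytosis, and CD73 makes extracellular adenosine, which dampens T cells, from AMP. Interferons, through STAT and IRF factors, are textbook inducers of Cd274 and Lgals9.

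The promoters are shown because DAC acts on DNA methylation, which in mammals sits mostly on CpG, and because interferon-driven genes are read through short response elements. RefSeq sequences on GRCm38.p6, from 250 bases before to 50 bases after the transcription start, were at hand for 7 of the 8 genes, all but Pvr. The interferon-stimulated response element (GAAA, any 2 bases, GAAA) was searched on both strands, and 3.44% of 32851 promoters of this length hold it. Lgals9 was the 1 gene of the 7 that holds it, on the minus strand at bases -55 and 16 from the start. Isg15, one of the genes whose level was most like that of Lgals9, holds 3 overlapping matches at -78, -72 and -66. Xaf1, another of these genes, holds none, and Cflar, one of the genes most like Pvr, holds 1 at base 7. No letters of the 6 motifs searched were found in the Cd274 promoter, which says only that these letters are not in this window. Capitals mark the matches to the interferon-stimulated response element alone, in Lgals9 and Isg15, and each sequence runs 5′ to 3′ on the gene's strand.
Lgals9, chr11:78984875-78985174, minus strand: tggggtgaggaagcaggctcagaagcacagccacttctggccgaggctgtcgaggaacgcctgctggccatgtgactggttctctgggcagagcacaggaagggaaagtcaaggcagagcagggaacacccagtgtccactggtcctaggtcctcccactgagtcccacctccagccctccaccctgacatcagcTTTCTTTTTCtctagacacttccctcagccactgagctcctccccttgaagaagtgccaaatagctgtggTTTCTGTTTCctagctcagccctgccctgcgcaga
Isg15, chr4:156200769-156201068, minus strand: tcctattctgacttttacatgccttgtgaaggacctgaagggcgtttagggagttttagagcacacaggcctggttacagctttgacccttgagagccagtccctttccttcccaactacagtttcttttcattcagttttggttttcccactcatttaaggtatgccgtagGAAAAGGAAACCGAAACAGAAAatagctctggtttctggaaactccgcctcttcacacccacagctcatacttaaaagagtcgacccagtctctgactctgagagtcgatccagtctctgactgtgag
Cd274, chr19:29367188-29367487, plus strand: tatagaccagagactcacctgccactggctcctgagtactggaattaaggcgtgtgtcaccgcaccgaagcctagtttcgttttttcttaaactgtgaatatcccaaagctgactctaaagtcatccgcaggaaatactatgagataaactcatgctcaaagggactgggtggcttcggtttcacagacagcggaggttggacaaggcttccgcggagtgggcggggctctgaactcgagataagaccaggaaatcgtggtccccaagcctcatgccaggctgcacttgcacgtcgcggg

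The other 5 motifs were the STAT element TTCNNNGAA (8.3% of promoters), the NF-kB site (GGGA, any 4 bases, CC; 20.7%), the core of the antioxidant response element TGACNNNGC (12.4%), the AP-1 site TGANTCA (7.81%) and the E-box CACGTG (7.15%). Of these, the NF-kB letters were found in Lgals9 at -129, in Pdcd1lg2 at -244 and in Nt5e at -33, and none of the 5 in Cd276, Vsir, Cd47 or Cd274. The number of CpG in the 300 bases ranged from 3 in Pdcd1lg2 and 4 in Lgals9 through 15 in Cd274 and in Vsir and 23 in Nt5e to 39 in Cd276, against a median of 7 over all promoters (quartiles 3 and 20). Cd47 has 2 start sites in the table, with 35 and 36 CpG. Thus CpG-poor and CpG-rich promoters both occurred among these genes. Nt5e is shown, with each CpG in capitals, as a CpG-rich promoter of a gene that stayed near 0 counts in every group.
Nt5e, chr9:88327359-88327658, plus strand: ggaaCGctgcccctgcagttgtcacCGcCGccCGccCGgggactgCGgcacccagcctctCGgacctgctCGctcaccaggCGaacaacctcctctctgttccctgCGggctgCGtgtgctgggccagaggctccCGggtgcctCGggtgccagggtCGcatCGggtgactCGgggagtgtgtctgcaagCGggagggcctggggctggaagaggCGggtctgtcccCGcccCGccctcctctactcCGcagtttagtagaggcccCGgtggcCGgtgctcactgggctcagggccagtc

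On mm10 (GENCODE M21), Cd274 (chr19:29367455-29388095, plus strand) and Pdcd1lg2 (chr19:29410919-29471161, plus strand) lie next to each other, with 22824 bases between them. Nt5e (chr9:88327197-88372092, plus strand) and Cd276 (chr9:58524298-58555437, minus strand) share a chromosome. The others are Lgals9 (chr11:78962974-78984946, minus strand), Pvr (chr7:19903578-19921160, minus strand), Cd47 (chr16:49800533-49915010, plus strand) and Vsir (chr10:60346851-60372684, plus strand). Values are reads assigned to the whole gene. Annotated genes on the opposite strand overlap Cd274, Cd276, Pdcd1lg2, Pvr and Vsir, and whether strand was used in counting is not given in the sources used here, so reads of the 2 strands cannot be told apart with certainty.

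Total counts per library ranged from 15880957 to 27291436. Levels are counts per 1000000 counts (CPM), scaled between libraries by the trimmed mean of M values (TMM). The 8 melanocyte markers were all expressed and summed to between 22400 and 31200 CPM. Of 12 immune cell markers none passed the filter on low values, their sum was at most 0.574 CPM in any library, and Cd4, Adgre1, Nkg7 and Ncr1 were at 0 in every library. Of 7 stromal markers 2 passed the filter (sum 13.5 to 21.4 CPM) and of 4 epithelial markers 1 did (sum 0.602 to 1.59 CPM).

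Of the 8 genes, 5 passed the filter of 1 CPM in at least 3 libraries (Lgals9, Pvr, Cd276, Cd47 and Cd274), each above 1 CPM in all 12 libraries, and 3 did not. Per kilobase of exon, the mean over the 12 libraries was 31.8 CPM for Lgals9, 10.7 for Pvr, 4.93 for Cd276, 3.31 for Cd47 and 1.93 for Cd274. This order was found in 12 of 12 libraries, and the ranges of neighbouring genes did not overlap in control. Over all 12 libraries the ranges of Cd276 and Cd47 overlapped, as did those of Cd47 and Cd274.

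**Figure D1:**
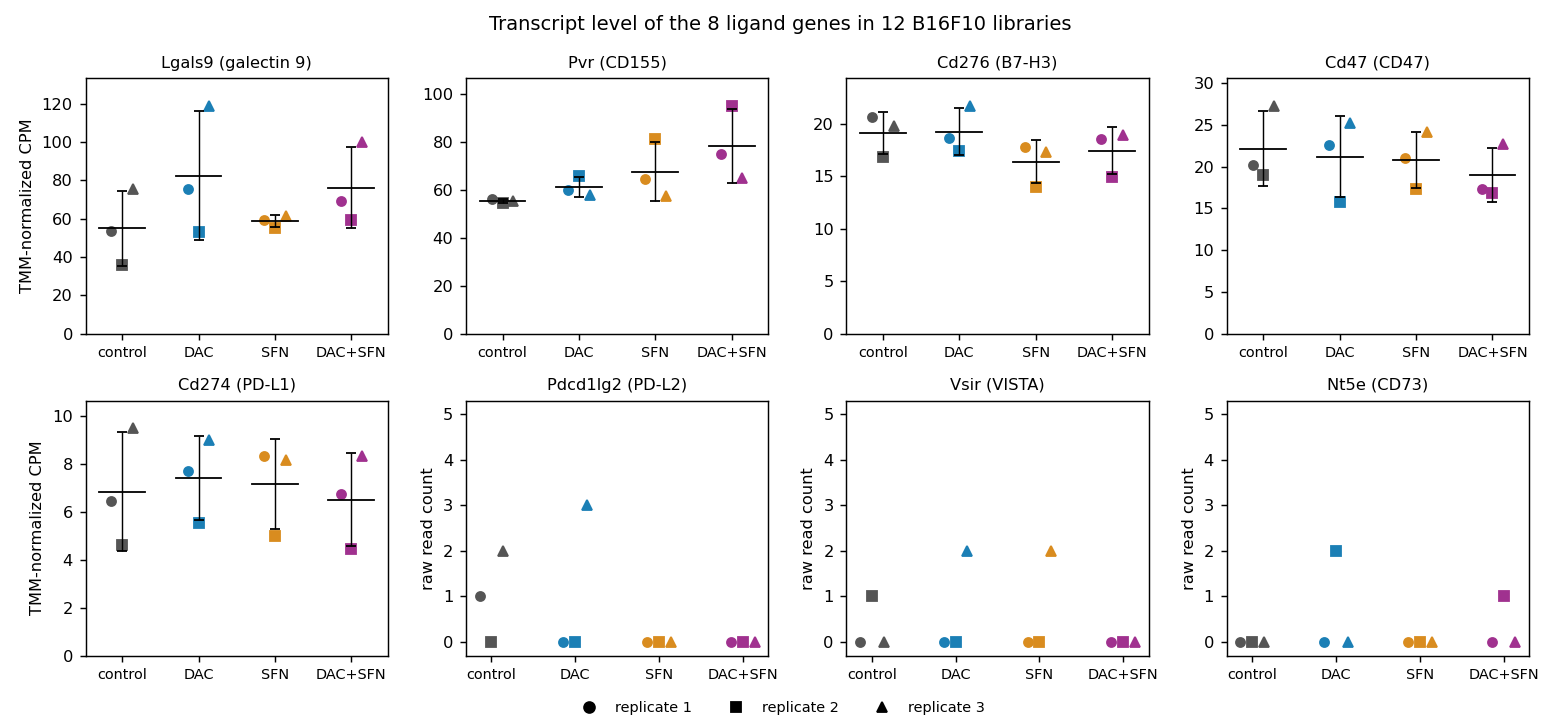
Level of each gene in 12 libraries, in TMM-normalized CPM for the 5 tested genes and in raw read counts for Pdcd1lg2, Vsir and Nt5e; symbols mark replicates 1, 2 and 3, horizontal lines the group mean and bars the SD (n = 3). Pvr was above its control range of 54.3 to 56.2 CPM in all 9 treated libraries, and no library held more than 3 reads of the last 3 genes.

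Against control, none of the 5 tested genes passed the test with DAC or with SFN, and 2 of the 5, Pvr and Lgals9, rose with DAC+SFN. Passing the test means a Benjamini-Hochberg adjusted p-value under 0.05 over 11638 genes in edgeR's quasi-likelihood test, two-sided, with the replicate number as a block. Over all genes tested, 0.18% passed with DAC, 13.9% with SFN and 31.6% with DAC+SFN, where 17% were higher. At an unadjusted p-value under 0.05, the genes were 1 of 5 with DAC (Lgals9, higher) and 2 with SFN (Pvr, higher, and Cd276, lower). With DAC+SFN they were 3 (Pvr and Lgals9, higher, and Cd47, lower). Of all 11638 genes, 1170 were under this value with DAC, 3356 with SFN and 4940 with DAC+SFN. The median log2 fold change of the 5 was 0.13 with DAC, 0.08 with SFN and -0.06 with DAC+SFN, where the medians over all tested genes were 0.005, 0.004 and 0.008. None changed by more than 2-fold in any comparison, where 0.0344% of all genes passed the test with such a fold with DAC, 1.28% with SFN, 2.66% with DAC+SFN, 0.928% for DAC+SFN against DAC and 0.112% for DAC+SFN against SFN. The comparisons with control share the control libraries and are not independent of each other.

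**Figure D2:**
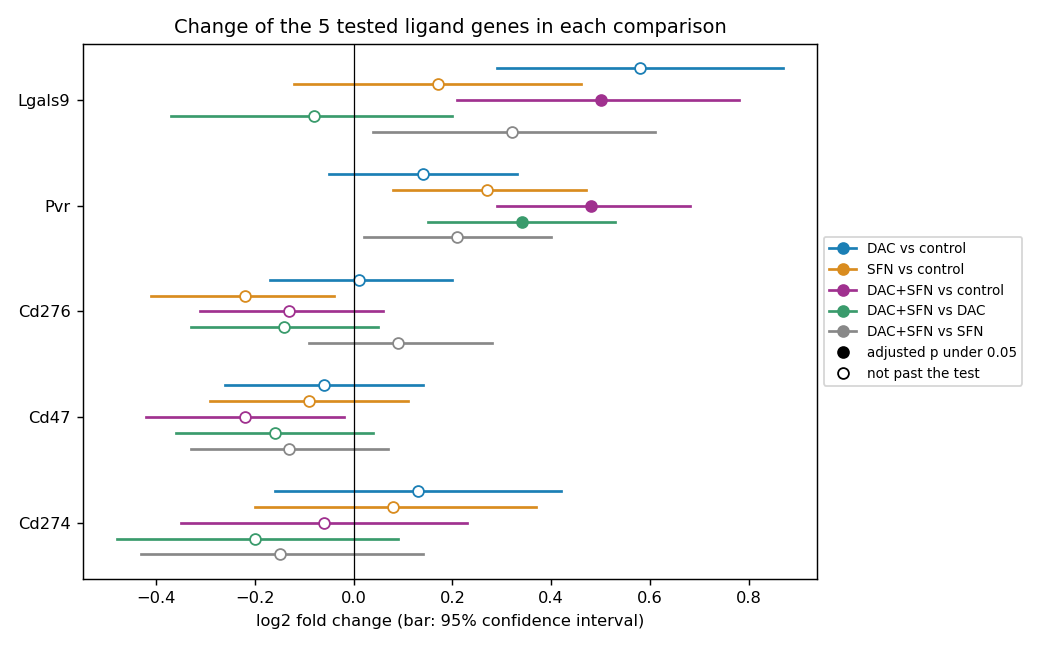
Log2 fold change (point) and 95% confidence interval (bar) of the 5 tested genes in 5 comparisons; filled points passed the test. Filled are Lgals9 and Pvr in DAC+SFN against control (0.50 and 0.48) and Pvr in DAC+SFN against DAC (0.34), and every interval lies within 1 log2 unit of 0.

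Cd274, the gene of PD-L1, did not pass the test in any comparison. Its levels in replicates 1, 2 and 3 were 6.44, 4.6 and 9.5 CPM in control and 7.7, 5.55 and 8.99 with DAC. SFN cultures gave 8.33, 5.01 and 8.18 CPM, and DAC+SFN cultures 6.74, 4.45 and 8.31. The 4 groups overlapped, and replicate 2 was the lowest library in each. The log2 fold change was 0.13 with DAC (95% confidence interval -0.16 to 0.42, adjusted p = 0.793), 0.08 with SFN (-0.2 to 0.37, adjusted p = 0.734) and -0.06 with DAC+SFN (-0.35 to 0.23, adjusted p = 0.75). A change of Cd274 by 2-fold lay outside each of these intervals, while smaller changes in either direction lay inside them. The Cd274 level rested on 87 to 240 reads per library.

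Pdcd1lg2, the neighbour of Cd274, had 6 reads in all over the 12 libraries and was at 0 in 9 of them. Its reads were 1, 0 and 2 in control and 0, 0 and 3 with DAC, and there was none with SFN or DAC+SFN. Vsir had 5 reads in all, which were 1 in control, 2 with DAC and 2 with SFN. Nt5e had 3 reads in all, 2 in a DAC library and 1 in a DAC+SFN library. None of the 3 was detected above this level, so no change could be tested. Over the pooled 12 libraries, the exact Poisson intervals of the sums were 2.2 to 13.1 reads for Pdcd1lg2, 1.62 to 11.7 for Vsir and 0.619 to 8.77 for Nt5e, which cover counting error only. A library at 0 reads allows up to 3 reads, which is between 0.11 and 0.189 CPM at these depths.

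Pvr rose with DAC+SFN, and its level was above control in every treated library. Its levels in replicates 1, 2 and 3 were 56.2, 54.3 and 55.4 CPM in control and 59.8, 65.9 and 57.7 with DAC. With SFN they were 64.5, 81 and 57.2 CPM, and with DAC+SFN 75, 95 and 64.8. Each treated group lay wholly above control, as was so for 8.43% of all genes with DAC, 20.8% with SFN and 29.4% with DAC+SFN in either direction. The control libraries were close together (55.3 ± 0.939 CPM, SD, n = 3), while the DAC+SFN libraries were spread more widely (78.3 ± 15.4).

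With DAC+SFN, Pvr rose 1.4-fold over control (log2 fold change 0.48, SE 0.09, 95% confidence interval 0.29 to 0.68, adjusted p = 0.00105), and it was higher in 3 of 3 replicates, by 0.42, 0.81 and 0.23 on the log2 scale. The log2 fold change was 0.27 with SFN (SE 0.09, adjusted p = 0.0547) and 0.14 with DAC (SE 0.09, adjusted p = 0.644). The SFN value was under the threshold in 4 of the 12 fits that left out 1 library. These left out DAC replicate 3 (adjusted p = 0.0491), DAC+SFN replicate 2 (0.0365), DAC+SFN replicate 3 (0.0247) or control replicate 3 (0.0257). Over the 12 fits the SFN log2 fold change ranged from 0.142 to 0.358, with an adjusted p-value of up to 0.36. Without the replicate block it was 0.29 (adjusted p = 0.357). The SFN differences in replicates 1, 2 and 3 were 0.2, 0.58 and 0.05. Against DAC alone, Pvr was 1.27-fold higher with DAC+SFN (0.34, SE 0.09, adjusted p = 0.018), in a comparison where 16.1% of all genes passed the test (9.55% higher). That call was lost without DAC replicate 1 (adjusted p = 0.0671), DAC replicate 2 (0.0976), DAC+SFN replicate 1 (0.0598) or DAC+SFN replicate 2 (0.0868). Against SFN alone the difference was 0.21 (SE 0.09, adjusted p = 0.225), where 1.61% of all genes passed the test. The interaction of DAC and SFN, which asks whether the combination differs from the sum of the log2 changes of the single agents, was 0.07 (-0.2 to 0.34, adjusted p = 0.989), and no gene of all those tested passed it, with 683 at an unadjusted p-value under 0.05 in edgeR and 0 past the adjusted threshold in DESeq2.

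Nectin2 (CD112), a relative of CD155 that also binds TIGIT and CD226, fell with SFN and with DAC+SFN. Its levels in replicates 1, 2 and 3 were 43.3, 38.5 and 46.6 CPM in control and 42.5, 46.5 and 55.7 with DAC. With SFN they were 28.7, 26.5 and 29.7 CPM, and with DAC+SFN 30, 28.4 and 33.9. The SFN and the DAC+SFN libraries all lay below the control libraries. Nectin2 fell by 0.60 on the log2 scale with SFN (SE 0.08, adjusted p = 0.000132) and by 0.48 with DAC+SFN (SE 0.08, adjusted p = 0.000316), and with DAC it was 0.17 higher (adjusted p = 0.451). Both falls kept an adjusted p-value under 0.05 in all 12 fits that left out 1 library.

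**Figure D3:**
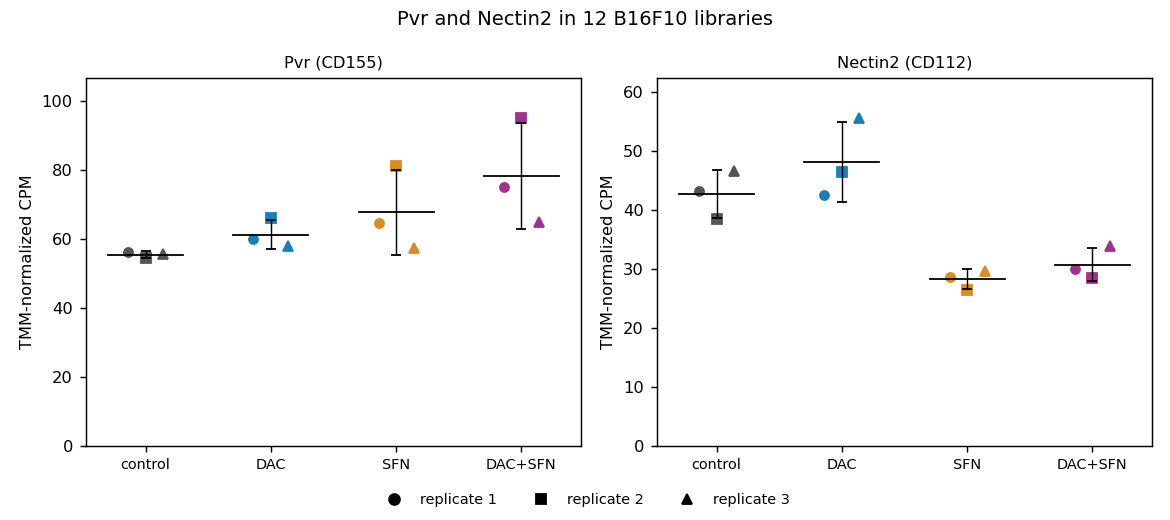
TMM-normalized CPM of Pvr and Nectin2 in 12 libraries by group; symbols mark replicates, lines the group mean and bars the SD (n = 3). Pvr was highest with DAC+SFN (64.8 to 95 CPM), where Nectin2 lay at 28.4 to 33.9 CPM, below its control range of 38.5 to 46.6.

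Lgals9 rose with DAC+SFN and had its highest mean with DAC. Its levels in replicates 1, 2 and 3 were 53.7, 35.7 and 75.3 CPM in control and 75.5, 52.8 and 119 with DAC. With SFN they were 59.5, 55.4 and 61.6 CPM, and with DAC+SFN 69.5, 59.3 and 99.9. The groups overlapped, but within each replicate number the DAC and the DAC+SFN library lay above the control library.

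With DAC+SFN, Lgals9 rose 1.41-fold over control (log2 fold change 0.50, SE 0.13, 95% confidence interval 0.21 to 0.78, adjusted p = 0.0116), by 0.37, 0.73 and 0.41 in the 3 replicates. This call was lost without control replicate 2 (0.38, adjusted p = 0.0815) and without the replicate block (0.48, adjusted p = 0.32). With DAC alone the log2 fold change was 0.58 (SE 0.13, 0.29 to 0.87, unadjusted p = 0.000607), with differences of 0.49, 0.56 and 0.66 in the 3 replicates, and it did not pass the test after adjustment (adjusted p = 0.11). In a fit of the DAC and control libraries alone the adjusted p-value was 1.37e-06, and without a filter on low counts it was 0.000317, so the DAC call depended on the fit. It was also under 0.05 in 3 of the 12 fits that left out 1 library. These left out DAC+SFN replicate 3 (0.0389), SFN replicate 2 (0.0421) or SFN replicate 3 (0.0227). Over the 12 fits the log2 fold change with DAC ranged from 0.432 to 0.692, with an adjusted p-value of up to 0.542. Without the replicate block it was 0.592 (unadjusted p = 0.0706) and did not pass the test. With SFN alone Lgals9 was at 0.17 (SE 0.13, adjusted p = 0.434), and the replicates differed in sign (0.15, 0.63 and -0.29). Without SFN replicate 3 the value was 0.39 (adjusted p = 0.0352), and without SFN replicate 2 it was -0.03. DAC+SFN differed from DAC by -0.08 (-0.37 to 0.2, adjusted p = 0.717) and from SFN by 0.32 (0.04 to 0.61, adjusted p = 0.212). Leaving out SFN replicate 2 gave 0.53 for the difference from SFN (adjusted p = 0.0463), the 1 such fit of 12 under 0.05. Over these 12 fits that difference ranged from 0.111 to 0.527, with an adjusted p-value of up to 0.779. The interaction was -0.26 (-0.66 to 0.15, adjusted p = 0.966).

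Cd276 and Cd47 did not pass the test in any comparison. Cd276 in replicates 1, 2 and 3 was at 20.6, 16.8 and 19.8 CPM in control and at 18.6, 17.4 and 21.7 CPM with DAC. SFN cultures gave 17.8, 14 and 17.3 CPM, and DAC+SFN cultures 18.5, 14.9 and 18.9. It was lower with SFN in 3 of 3 replicates (log2 fold change -0.22, SE 0.09, unadjusted p = 0.0212) but did not pass the test after adjustment (adjusted p = 0.102). The values with DAC (0.01, -0.17 to 0.2) and DAC+SFN (-0.13, -0.31 to 0.06) were smaller in size.

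Cd47 in replicates 1, 2 and 3 was at 20.2, 19 and 27.3 CPM in control and at 22.6, 15.8 and 25.2 CPM with DAC. SFN cultures gave 21, 17.3 and 24.1 CPM, and DAC+SFN cultures 17.3, 16.9 and 22.7. It was lower with DAC+SFN in 3 of 3 replicates (log2 fold change -0.22, SE 0.09, unadjusted p = 0.0338), which did not pass the test after adjustment (adjusted p = 0.0873). With DAC the value was -0.06 (-0.26 to 0.14) and with SFN -0.09 (-0.29 to 0.11). The groups of both genes overlapped in every comparison.

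The levels of these genes also differed between the replicate numbers. A test of the 3 replicate numbers across conditions was passed by 5 of the 5 genes and by 33.9% of all genes tested. The largest difference between replicate numbers was 0.84 on the log2 scale for Cd274 (1.79-fold, adjusted p = 0.000351), 0.79 for Lgals9 (1.72-fold, adjusted p = 0.000512) and 0.52 for Cd47 (1.43-fold, adjusted p = 0.000805). It was 0.31 for Pvr (adjusted p = 0.0166) and 0.30 for Cd276 (adjusted p = 0.0131). Replicate 2 held the lowest library in 4 of 4 groups for Cd274, Cd276, Lgals9 and Cd47. Replicate 3 held the highest in 4 of 4 groups for Lgals9 and Cd47 and in 3 for Cd274. Pvr had the other order in most groups, with replicate 2 highest in 3 of 4 groups and replicate 3 lowest in 3 of 4. Library numbers ran with the replicate numbers, so library preparation and culture cannot be told apart here.

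Across the 12 libraries, Pearson's r of the log2 levels was 0.85 between Cd274 and Cd47, 0.73 between Cd274 and Cd276, and 0.72 between Cd274 and Lgals9. Pvr had r = -0.70 with Cd276, -0.67 with Cd47 and -0.05 with Lgals9. These libraries share replicate numbers and groups, so the values describe this set of libraries.

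Over all tested genes, the 3 whose log2 levels were most like those of Lgals9 over the 12 libraries were Dhx58 (r = 0.977), which codes for the RNA sensor LGP2, Isg15 (0.977), a ubiquitin-like modifier, and Xaf1 (0.969), a binder of the apoptosis inhibitor XIAP. Isg15 was at 6.85, 3.61 and 17.6 CPM in control and at 14.7, 8.1 and 43.6 CPM with DAC. SFN cultures gave 8.89, 6.02 and 9.53 CPM, and DAC+SFN cultures 15.9, 11.7 and 28.6. As for Lgals9, its DAC and DAC+SFN libraries lay above the control library of the same replicate number. The 3 genes were picked for their likeness to Lgals9 in these same libraries. Their shared pattern therefore follows from the choice and is not a separate result. Isg15 rose by 1.13 on the log2 scale with DAC+SFN (adjusted p = 0.00333) and was 1.22 higher with DAC (adjusted p = 0.059). Dhx58 rose by 0.78 (adjusted p = 0.0145) and Xaf1 by 0.83 (adjusted p = 0.0157) with DAC+SFN. With DAC they were 0.79 and 0.80 higher (adjusted p = 0.186 and 0.221).

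The 3 genes most like Pvr were Tns2 (r = 0.983), which codes for the focal adhesion protein tensin 2, Hmox1 (0.965), heme oxygenase 1, and Cflar (0.958), the caspase-8 inhibitor c-FLIP. Hmox1 was at 148, 154 and 134 CPM in control and at 172, 211 and 178 CPM with DAC. SFN cultures gave 178, 278 and 137 CPM, and DAC+SFN cultures 247, 359 and 171. Its DAC+SFN libraries all lay above the control libraries, with replicate 2 highest. Here too the 3 genes were picked for their likeness in these libraries, so a pattern shared with Pvr follows from the choice. With DAC+SFN, Hmox1 rose by 0.78 (adjusted p = 0.000741), Cflar by 0.46 (adjusted p = 0.000467) and Tns2 by 0.35 (adjusted p = 0.00123).

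**Figure D4:**
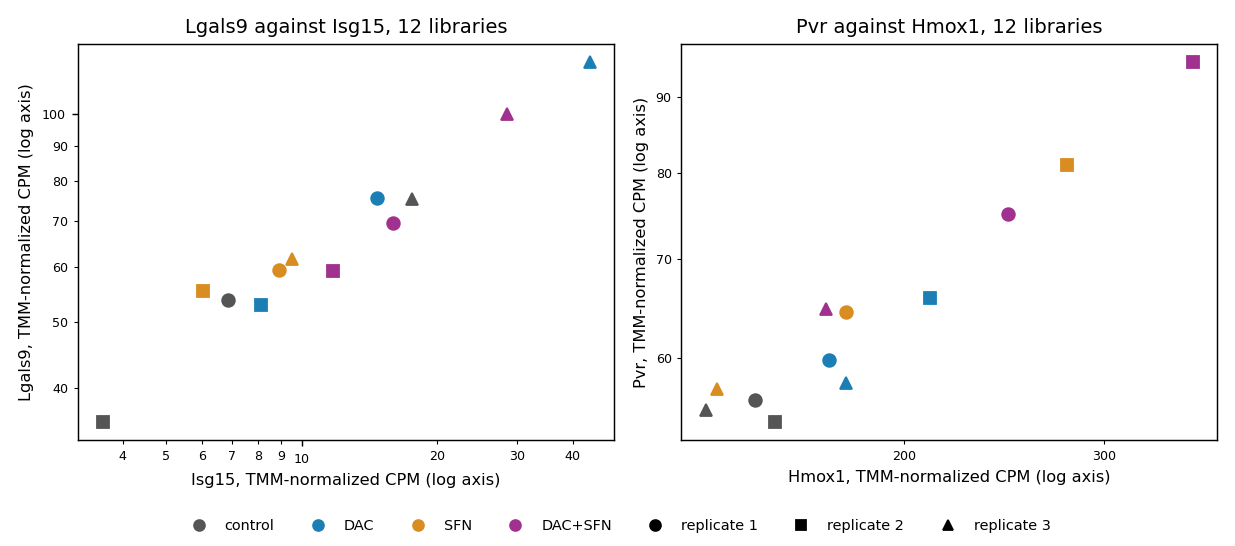
Lgals9 against Isg15 and Pvr against Hmox1 in 12 libraries, TMM-normalized CPM on log axes; colors mark groups and symbols replicates. Lgals9 and Isg15 were both highest in DAC replicate 3 (119 and 43.6 CPM), and Pvr and Hmox1 in DAC+SFN replicate 2 (95 and 359 CPM). Isg15 and Hmox1 were picked for a high r over these libraries, so the likeness follows from the choice.

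Of 12 receptors and binding partners, 4 passed the filter and none passed the test in any comparison. Sirpa, the receptor of CD47, had group means of 361 to 385 CPM, and its log2 fold change was -0.08 with DAC+SFN (-0.2 to 0.03). Havcr2 (TIM-3) had group means of 4.84 to 5.35 CPM, Igsf11, a partner of VISTA, of 19.8 to 23.3 CPM, and Rgmb, a partner of PD-L2, of 14.1 to 15.9 CPM. Pdcd1 (PD-1) and Cd226 were at 0 in every library. The calls given here for genes of the pathways rest on the replicate block, since 27 of the 34 calls of the ligand genes and of the named list genes were lost without it.

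Of 14 other ligands of T and NK cell receptors, 6 passed the filter. With DAC 1 of the 6 rose, with SFN 1 rose and 2 fell, and with DAC+SFN 1 rose and 1 fell. For this and the lists below, 0.18% of all tested genes passed with DAC, 13.9% with SFN and 31.6% with DAC+SFN (17% higher). No list was tested for an excess over these shares. The riser was Lgals3 (galectin 3), which rose by 0.66 with DAC (adjusted p = 0.0344), by 0.80 with SFN (adjusted p = 0.000335) and by 1.20 with DAC+SFN (adjusted p = 4.99e-06). Replicate 2 stood above the others for Lgals3, with 248 CPM against 78.2 and 100 in control and 602 against 228 and 168 with DAC+SFN. Its DAC call was kept in 7 of the 12 fits that left out 1 library, and was lost without DAC replicate 2 (adjusted p = 0.108), DAC replicate 3 (0.144), SFN replicate 1 (0.0625), control replicate 1 (0.267) or control replicate 2 (0.259). Beside Nectin2, Icosl, a ligand of the costimulatory receptor ICOS, fell by 0.95 with SFN from a mean of 1.88 CPM (adjusted p = 0.0232), a call that held in 7 of the same 12 fits and was lost without SFN replicate 1 (0.108), SFN replicate 3 (0.106) or control replicate 1, 2 or 3 (0.0827, 0.0711 and 0.0528).

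Among the genes around PD-L1, 15 genes that act on the PD-L1 protein (its stability, glycosylation and recycling) were all tested and none passed the test in any comparison, Cmtm6 and Cmtm4 included. At an unadjusted p-value under 0.05 there was 1 with DAC+SFN and 0 with DAC or SFN. Of 11 genes of interferon-γ signaling, 0 passed with DAC or SFN (2 and 0 at an unadjusted p-value under 0.05), and 1 rose and 2 fell with DAC+SFN. Stat3 rose by 0.36 (adjusted p = 0.00069), the kinase gene Jak2 fell by 0.22 (adjusted p = 0.0366) and the phosphatase gene Ptpn2 fell by 0.32 (adjusted p = 0.00583). The Jak2 call was lost without DAC+SFN replicate 1 (0.0819), DAC+SFN replicate 2 (0.204), SFN replicate 3 (0.0507), control replicate 1 (0.0619) or control replicate 2 (0.181). Jak1 was 0.14 higher (adjusted p = 0.0588).

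Around CD47, 5 of 6 genes that bear on phagocytosis were tested. With DAC+SFN, Qpctl, whose enzyme modifies CD47 for binding to SIRPα, rose by 0.46 (adjusted p = 0.00553), Thbs1, which codes for the CD47 ligand thrombospondin 1, by 0.98 (adjusted p = 0.000252) and Lrp1, the receptor of calreticulin on phagocytes, by 0.43 (adjusted p = 0.00027). Calr (calreticulin), a signal for uptake on the cell surface, fell by 0.38 (adjusted p = 0.000224). Thbs1 was widely spread, at 87.7 ± 89.1 CPM in control and 146 ± 107 with DAC+SFN (SD, n = 3), and these groups overlapped. Its differences within replicates 1, 2 and 3 were 1.02, 1.52 and 0.5 on the log2 scale. With SFN, Thbs1 rose by 0.62 (adjusted p = 0.0124) and Calr fell by 0.22 (adjusted p = 0.0201), and with DAC none of the 5 passed the test (2 at an unadjusted p-value under 0.05). The SFN call of Thbs1 was lost without SFN replicate 2 (adjusted p = 0.0706) or control replicate 2 (0.0724), and that of Calr without SFN replicate 2 (0.152), SFN replicate 3 (0.0749), control replicate 1 (0.0742) or control replicate 2 (0.0934).

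Around CD73, whose own transcript was near 0, 6 of 12 genes of extracellular adenosine handling were tested. With DAC+SFN, Entpd2, an enzyme that cleaves extracellular ATP, rose by 0.50 (adjusted p = 0.0163), the nucleoside transporter gene Slc29a1 rose by 0.35 (adjusted p = 0.00129) and Adk (adenosine kinase) fell by 0.21 (adjusted p = 0.0211). With SFN 1 gene passed the test, Slc29a1 (0.51 higher, adjusted p = 0.00018), and with DAC none did (0 at an unadjusted p-value under 0.05). Ada, adenosine deaminase, was at 0.21 with DAC+SFN (adjusted p = 0.198). The Entpd2 call was lost without DAC+SFN replicate 1 (adjusted p = 0.112), DAC+SFN replicate 2 (0.0742) or control replicate 2 (0.107), and the Adk call without DAC+SFN replicate 2 (0.099) or control replicate 2 (0.0762).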

How the data were processed

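RNA from 12 cultures of B16F10 cells was sequenced (TruSeq stranded mRNA kit, Illumina single-end reads). The authors deposited raw counts per gene: per the labels and the study's methods, reads were checked with FastQC 0.11.7, trimmed with Trimmomatic 0.38, aligned to mm10 with TopHat2 2.1.1 and counted with HTSeq on known genes, unique alignments only. The gene annotation and the strand setting are not given in the sources used here. Reads shared with near-identical genes were not counted, which can lower genes of multigene families.

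Groups and replicate numbers came from the labels. The 8 genes and all gene lists were chosen with earlier results of these data known. Genes at 1 CPM or more in at least 3 libraries were kept (11638), scaled by TMM and fitted for all 12 libraries in edgeR 4.0.16 (quasi-likelihood test, R 4.3.3) with group and replicate number as terms, after the methods of the study, which correct for a batch. P-values were adjusted by Benjamini-Hochberg over all tested genes. Log2 differences within a replicate carry a prior count of 2. The SE is the log2 fold change over the square root of F. Same-numbered libraries deviated together (correlation of deviations from group means 0.27 to 0.732 over 18 pairs), and the study describes independent repeats. With replicate number as a term, shifts common to a replicate are taken out. P-values therefore measure how the differences between groups varied across the repeats. The chi-square between 2 replicates of a group was 13.6 or more per gene, above sampling noise, so none was a copy. From each list, up to 4 genes with the smallest adjusted p-value against control were named, any receptor or marker, and for each of the 8 genes called against control the 3 with the highest Pearson's r. Cmtm6 and Cmtm4, and the markers with their calls or at 0, were picked after their values were seen. The fits were tested on simulated data. Alternatives were DESeq2 1.42.0, its size factors, other filters, no block, only the samples compared, and leaving out each library. Promoters were those of RefSeq, and figures were drawn with matplotlib 3.10.9.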

Additional observations from a re-analysis of the deposited data

How the results depend on the processing

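The number of the 5 tested genes that passed the test moved with the processing. For DAC against control it was 0 as reported and 1 (Lgals9) without a filter on low counts or with only the samples compared, and 0 to 1 when 1 library was left out. For SFN against control it was 0 as reported and 1 (Pvr) with the DESeq2 Wald test, without a filter or with only the samples compared, and 0 to 1 when 1 library was left out. For DAC+SFN against control it was 2 as reported, 1 (Pvr, 0.50, adjusted p = 0.0431) without the replicate block, 0 at a fold above 2, and 1 to 2 when 1 library was left out. For DAC+SFN against DAC it was 1 as reported, 0 without the replicate block (Pvr, 0.36, adjusted p = 0.229), 0 at a fold above 2, and 0 to 1 when 1 library was left out. For DAC+SFN against SFN it was 0 as reported, 2 (Pvr, adjusted p = 0.0178, and Lgals9, adjusted p = 0.0057) with only the samples compared, and 0 to 1 when 1 library was left out. For the replicate number it was 5 as reported, 0 at a fold above 2, and 3 to 5 when 1 library was left out. For the interaction it was 0 in every fit.

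Signs changed only where 1 library was left out, and only for values that did not pass the test. Cd274 ranged from -0.155 to 0.052 with DAC+SFN and from -0.026 to 0.196 with SFN (-0.008 without control replicate 1), Cd276 from -0.038 to 0.09 with DAC (-0.014 and -0.029 without DAC replicate 2 and control replicate 3), and Cd47 from -0.155 to 0.023 with DAC and from -0.154 to 0.022 for the interaction. Lgals9 ranged from -0.034 to 0.389 with SFN and from -0.205 to 0.062 for DAC+SFN against DAC, and Pvr from -0.025 to 0.189 for the interaction (-0.015 without DAC+SFN replicate 2). The rise of Pvr with DAC+SFN held in all 12 such fits (0.352 to 0.568) and in the fit without the block.

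Without the replicate block, edgeR called 0 of all genes with DAC (330 at an unadjusted p-value under 0.05) against 21 with the block, 23 with SFN against 1619, 1201 with DAC+SFN against 3683, 20 for DAC+SFN against DAC in place of 1879, and 0 for DAC+SFN against SFN (893 unadjusted) in place of 187. With only the samples compared these were 662, 1920, 2689, 760 and 1221. DAC gave 83 genes with DESeq2 and 169 without a filter, and DAC+SFN against SFN 388 and 486. The cause of these shifts was not tested. Nectin2 with SFN (adjusted p = 0.0559), Lgals3, Thbs1, Lrp1 and Jak2 with DAC+SFN (0.251, 0.621, 0.313 and 0.291) and Qpctl, Entpd2, Slc29a1 and Adk with DAC+SFN (0.0911, 0.0555, 0.096 and 0.067) lost their calls without the block. Of 34 calls of the ligand genes and the named list genes, 27 were lost without the block and 7 were kept. The genes most like Pvr and Lgals9 and the markers were not refitted. Icosl with SFN was also lost with DESeq2 (adjusted p = 0.0547), and Jak2 and Adk with DAC+SFN with only the samples compared (0.0852 and 0.0825). With 3 to 6 reads in all, Pdcd1lg2, Vsir and Nt5e could not be tested at this depth.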

Other observations

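Of 14 genes of secreted factors that act on immune cells, 5 passed the filter on low values. Of the 5, 3 rose with DAC+SFN, 2 with SFN and 0 with DAC (2 at an unadjusted p-value under 0.05, edgeR). For this and the lists below, 31.6% of all tested genes passed with DAC+SFN (17% higher) and 13.9% with SFN. An excess over these shares was not tested. Tgfb3, a form of transforming growth factor β, rose by 0.56 with SFN (adjusted p = 0.00104) and by 0.74 with DAC+SFN (adjusted p = 4.48e-05), from a mean of 25.3 CPM in control to 42.3. Tgfb1 rose by 0.67 with DAC+SFN (adjusted p = 0.00559). Csf1, which codes for the macrophage growth factor M-CSF, rose by 0.57 with SFN (adjusted p = 0.00139) and by 0.75 with DAC+SFN (adjusted p = 6.94e-05). Vegfa was at -0.25 with DAC+SFN (adjusted p = 0.22). Without the replicate block the Csf1 calls were lost (adjusted p = 0.52 and 0.232), as were those of Tgfb3 with SFN (0.252) and Tgfb1 with DAC+SFN (0.05).

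Of 8 genes that protect cells from lysis by lymphocytes or complement, 7 were tested and 3 rose with DAC+SFN, 2 with SFN and 1 with DAC. Serpinb9b, a relative of the granzyme B inhibitor Serpinb9, rose by 0.77 with DAC (adjusted p = 0.0441), by 1.52 with SFN (adjusted p = 9.79e-06) and by 1.90 with DAC+SFN (adjusted p = 6.91e-07), from a mean of 3.9 CPM in control to 14.8. Its DAC call was lost in 10 of the 12 fits that left out 1 library and held without DAC+SFN replicate 1 or 3. Serpinb9 rose by 0.51 with DAC+SFN (adjusted p = 0.0126), lost without control replicate 2 (0.084). Cd59a, which blocks complement, rose by 0.48 with SFN (adjusted p = 0.0258) and by 0.52 with DAC+SFN (adjusted p = 0.00853). The latter call was lost without control replicate 2 (0.0695), and the former without SFN replicate 2 (0.18), SFN replicate 3 (0.109), control replicate 2 (0.178) or control replicate 3 (0.0686). Cr1l was at 0.08 in both (adjusted p = 0.516 and 0.458). The Serpinb9 genes are close copies, and their counts are uncertain. Without the replicate block each of these calls was lost.

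Of 9 genes of NKG2D ligands, which mark cells for killing by NK cells, 8 were in the files and 3 were tested. Ulbp1 rose by 0.95 with DAC+SFN (adjusted p = 0.00274), from a mean of 2.6 CPM in control to 5.01, and held in all 12 fits that left out 1 library. Raet1d and H60b were at 0.03 and -0.03 (adjusted p = 0.963 and 0.921), and both belong to families of close copies. With DAC and with SFN 0 of the 3 passed the test (0 at an unadjusted p-value under 0.05 in each).

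Among the melanocyte markers, Pmel fell by 0.36 (adjusted p = 0.0129), Tyrp1 fell by 0.17 (adjusted p = 0.0478) and Slc45a2 rose by 0.18 (adjusted p = 0.0236) with DAC+SFN. Of the stromal markers, Pdgfra fell by 0.84 with SFN (adjusted p = 0.024) and by 0.73 with DAC+SFN (adjusted p = 0.0249), from a mean of 2.56 CPM in control.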
